A study of Mus musculus with 24 samples.

Results

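Respiratory complex I was followed in engineered mouse muscle through the nuclear genes whose names begin with Nduf. Of the 56941 genes in the tables, 55 had such a name. Names ending in -ps, which mark processed copies, were set aside, as were genes with a mean under 1 TPM (a level scaled to the library's total and corrected for transcript length) over the 24 libraries. This left 48 genes, all of which passed the filter on low counts and entered the test. The 3 copies set aside by name were Ndufa12-ps, Ndufs5-ps and Ndufab1-ps, and the 4 genes under the TPM minimum were Ndufa4l2, Ndufb11b, Ndufa11b and Ndufs6b.

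The tissue was C2C12, an established mouse myoblast line, engineered to carry the light-gated channel ChR2 fused to the red fluorescent protein tdTomato (ChR2::tdTomato). Control cultures carried the same transgene as the stimulated ones, so that no group lacked it, and all cultures came from this single line. Cells were differentiated on fibrin hydrogel for about 2 weeks in medium with horse serum and IGF-1. They received no light (control) or 30 min of pulsed light per day at 1, 4 or 10 Hz. Each of the 4 conditions had 6 libraries, described in the study's methods as biological replicates, and bulk RNA was sequenced. In such bulk RNA, fewer cells of a type and less RNA per cell cannot be told apart.

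Complex I is the largest enzyme of the respiratory chain and its main entry point for electrons from NADH. It is L-shaped: a matrix arm takes electrons from NADH through flavin and iron-sulfur centres to ubiquinone, and a membrane arm pumps protons. The core subunits of the matrix arm come from nuclear genes, those of the membrane arm from the mitochondrial genome, and both are wrapped in accessory subunits that are nuclear encoded. Assembly factors join the modules and do not stay in the finished enzyme. Skeletal muscle fibers rely on this enzyme for oxidative ATP synthesis, and oxidative fibers hold more of it than glycolytic ones.

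By role, the 48 genes comprised 7 core subunits of the matrix arm, 10 accessory subunits of the matrix arm, 9 accessory subunits of the membrane arm near its joint with the matrix arm, 11 accessory subunits towards the far end of the membrane arm, and 8 assembly factors. Ndufa4, in spite of its name, encodes a subunit of complex IV, and Ndufb4b and Ndufb4c are single-exon copies of Ndufb4. The annotation lists Ndufb4b as a long noncoding RNA and Ndufb4c as a transcribed processed pseudogene. Mean levels in TPM spanned a wide range. Ndufb9, which encodes a far-end subunit, was highest at 768 ± 83.6 TPM (SD, n = 24), followed by Ndufa4 at 658 ± 100.9 TPM. The 37 subunit genes lay between 58.1 TPM for Ndufb4 and this highest value. The assembly factors were all lower, from 15.3 TPM for Ndufaf6 to 41.7 TPM for Ndufaf1, so that their range did not overlap that of the subunits. Among core subunits, Ndufs3 had 226 TPM and Ndufs1, the largest iron-sulfur subunit, 87.2 TPM. The median was 183 TPM for core subunits, 288 TPM for accessory matrix subunits, 180 and 205 TPM for membrane subunits near and far from the joint, and 27.2 TPM for assembly factors. The plot of levels by role shows this gap.

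**Figure D1:**
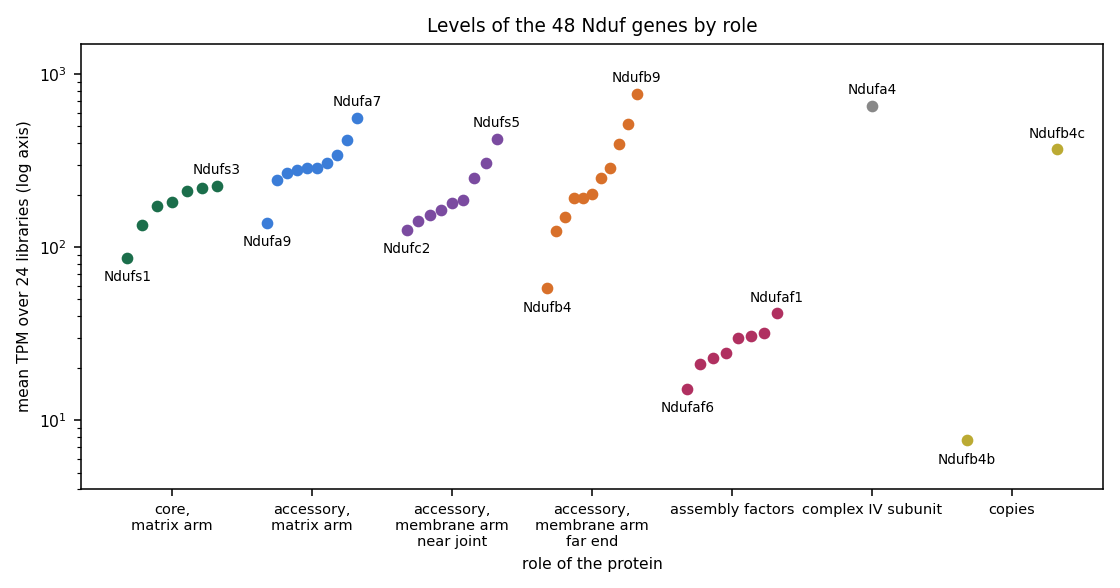
Mean TPM over 24 libraries (log axis) of the 48 Nduf genes, 1 point per gene, arranged by the role of the protein, with the lowest and highest gene of each role named. All 8 assembly factors lie at or below 41.7 TPM and all 37 subunit genes at or above 58.1 TPM.

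Libraries held 4085578 to 15194554 estimated counts (median 7481120), and no pair of libraries in a group was alike enough to be a copy. Muscle fiber genes were abundant in every library: Ckm, Acta1, Tnnt3, Mylpf, Myh3, Myh8, Des and Ttn summed to 7210 to 9263 CPM (counts scaled to the size of the library) in control, 11018 to 15286 at 1 Hz, 11527 to 17577 at 4 Hz and 7831 to 12245 at 10 Hz. Of these 8 genes, 6 were called higher at 1 Hz, 6 at 4 Hz and 2 at 10 Hz against control, and none lower. How far the change in fiber genes bears on the Nduf genes was not tested. Genes of undifferentiated and dividing myoblasts (Pax7, Myf5, Mki67, Top2a, Ccnb1 and Cdk1) summed to 36.6 to 61.7 CPM in control, 37.7 to 51.2 at 1 Hz, 32.5 to 59.5 at 4 Hz and 47.6 to 58.6 at 10 Hz. Of these 6, 1 was called higher and 1 lower at 1 Hz, 3 higher and 2 lower at 4 Hz, and none at 10 Hz (0 also at an unadjusted p under 0.05). Of the 6 matrix genes high in fibroblasts, Lum was listed at or near 0 (at most 0.209 CPM), and the sum was 391 to 850 CPM in control, 642 to 967 at 1 Hz, 481 to 864 at 4 Hz and 416 to 538 at 10 Hz. Of the 5 that were tested, 3 were called higher at 1 Hz, 1 lower at 4 Hz and none at 10 Hz. The 5 fat cell genes together did not exceed 1.09 CPM in any library, and Plin1 and Lep were at 0 in all control and 1 Hz libraries. Small RNAs without a poly(A) tail also separated the groups. They took 99.1 to 170 CPM in control and 38.4 to 273 CPM at 10 Hz, but only 15.03 to 70.8 CPM at 1 Hz and 18.3 to 51.1 CPM at 4 Hz, so that neither of the latter groups overlapped control. The labels mention both poly(A) selection and, for low-input samples, ribodepletion, without naming the libraries. Library preparation and light frequency therefore cannot be told apart in the comparisons of 1 or 4 Hz with control.

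Nduf genes rose most broadly at 4 Hz. By edgeR's quasi-likelihood test with Benjamini-Hochberg adjustment over 13318 genes, and with calls at an adjusted p under 0.05, 35 of the 48 genes were called higher at 4 Hz than in control and none lower, against 19.2% higher and 20.2% lower among all genes tested. At 10 Hz, 12 were called higher and none lower, against 2.67% and 2.22% of all genes. At an unadjusted p under 0.05, 40 differed in either direction at 4 Hz and 20 at 10 Hz by edgeR, and DESeq2 called 35 and 13 higher and none lower. At 1 Hz the picture was mixed, with 8 higher and 3 lower, against 18.1% and 17.3% of all genes, so that the share called higher was close to the background. Of the 37 genes for complex I subunits, 32 were called higher at 4 Hz, 10 at 10 Hz and 7 at 1 Hz. Among these 37, 1 was called lower at 1 Hz and none at 4 or 10 Hz. The median log2 fold change of the 48 genes was 0.08 at 1 Hz, 0.38 at 4 Hz and 0.20 at 10 Hz, beside medians of all genes of -0.01 in each of these comparisons. With limma on log2(TPM + 1) the medians of the 48 were 0.00 at 1 Hz, 0.20 at 4 Hz and 0.08 at 10 Hz, beside -0.06, -0.16 and -0.09 for all genes. At 10 Hz that fit called only Ndufa12, Ndufb4, Ndufb6 and Ndufs6 higher. With the correction for GC content and transcript length the medians of the 48 were 0.08, 0.26 and 0.11. These comparisons share the same 6 control libraries.

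Most changes were modest in size. With the study's additional fold threshold (an absolute log2 fold change above 0.5), 11 genes remained higher at 4 Hz and none lower (10.5% and 9.61% of all genes). At 10 Hz, 1 remained higher and none lower (1.24% and 0.623% of all genes), and at 1 Hz none higher and 1 lower (9.34% and 8.99%). At 4 Hz, 22 of the 48 genes had all 6 values above all 6 control values, and none had all below them (8.68% and 7.93% of all genes). This was so for 8 and 0 genes at 10 Hz (1.28% and 1.3% of all genes) and for 2 and 0 at 1 Hz (7.22% and 5.86%). Summed over the 48 genes, levels were 9478 to 10441 TPM in control, 9939 to 10751 at 1 Hz, 11050 to 12206 at 4 Hz and 10334 to 11623 at 10 Hz. The 4 Hz libraries thus lay above every control and every 1 Hz library, whereas those at 10 Hz overlapped all other groups.

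**Figure D2:**
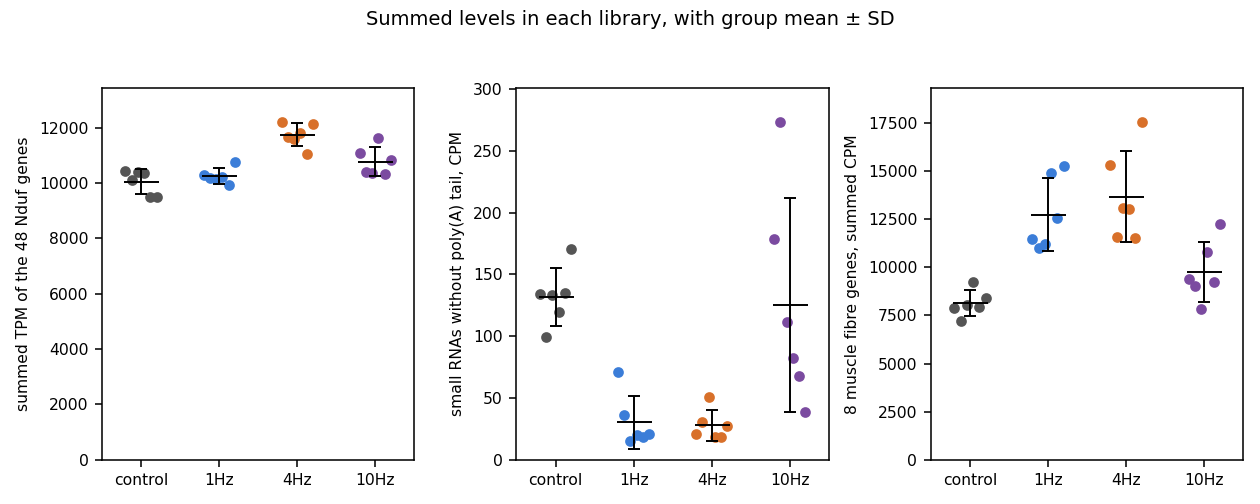
Summed TPM of the 48 Nduf genes, CPM of small RNAs without a poly(A) tail, and summed CPM of 8 muscle fiber genes, each point 1 library and each bar a group mean ± SD (n = 6). The Nduf sum at 4 Hz (11050 to 12206 TPM) lies above all control and 1 Hz libraries, and the small RNAs are low in both the 1 Hz (15.03 to 70.8 CPM) and the 4 Hz (18.3 to 51.1 CPM) libraries.

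The small RNA share moved with some of these comparisons and not with others. When its log2 value was added to the fit as a covariate, all 12 calls at 10 Hz against control were kept. The mean share was 132 CPM in control and 125 CPM at 10 Hz, so that the covariate had little group difference to take up there. Of the 35 calls at 4 Hz against control, 6 were kept (Ndufa12, Ndufa4, Ndufa5, Ndufb3, Ndufs4 and Ndufs6), and of the 11 calls at 1 Hz none. In these 2 comparisons the share did not overlap between the groups, so that the fit cannot separate it from frequency. Kept and lost calls therefore do not decide what the share contributes. Standard errors widened in that fit, as for Ndufs4 at 4 Hz (log2 fold change 0.83 ± 0.19, adjusted p = 0.024 by edgeR), and over all genes it called 1 gene higher and 0 lower at 1 Hz, beside 180 higher at 4 Hz. The median over the 48 genes at 4 Hz was 0.35 with the covariate. Control replicate 2, control replicate 5 and 10 Hz replicate 4 each mattered at 10 Hz: without them the 12 calls fell to 5, 5 and 6. At 1 Hz, leaving out 1 Hz replicate 6 reduced the 8 higher calls to 3. At 4 Hz, leaving out any library of the comparison gave 31 to 35 calls.

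**Figure D3:**
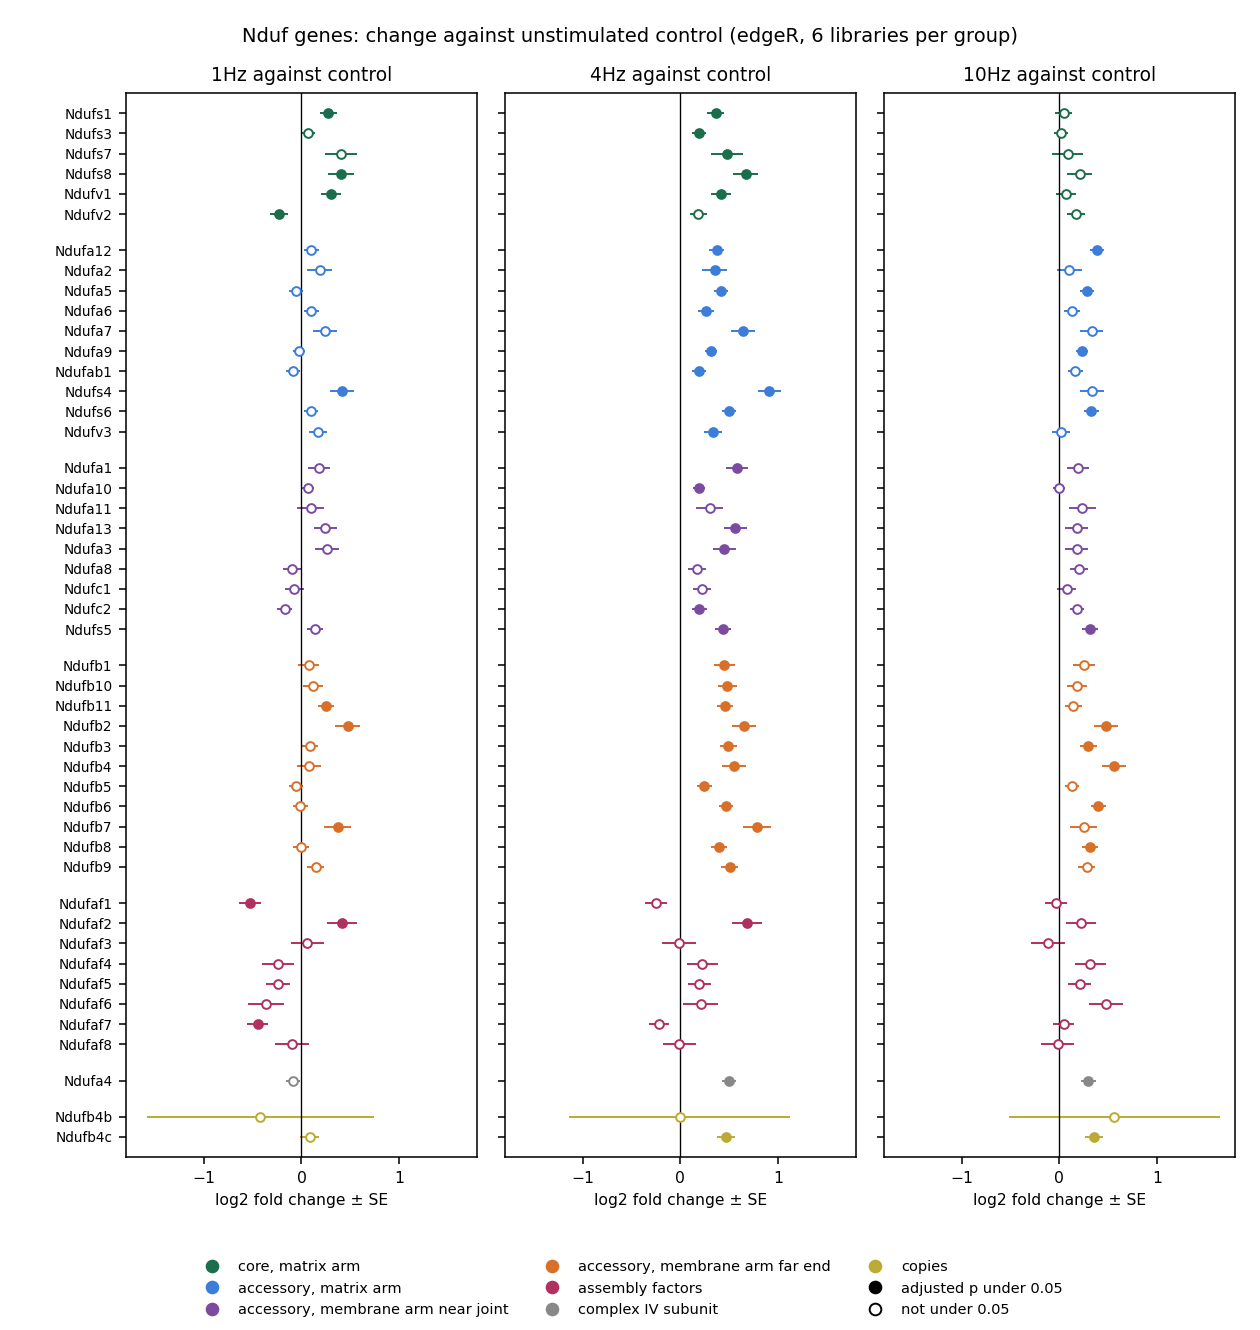
Log2 fold change ± SE against control (edgeR, 6 libraries per group) of 47 of the 48 Nduf genes at 1, 4 and 10 Hz, grouped by role. Filled points have an adjusted p under 0.05: 11 at 1 Hz (8 higher and 3 lower), 35 at 4 Hz and 12 at 10 Hz.

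Core subunits of the matrix arm, which carry the flavin and the iron-sulfur centres, rose at 4 Hz in 5 of 7 genes and at 10 Hz in none. At 1 Hz, 3 were called higher and 1 lower. The median log2 fold change of the 7 was 0.28 at 1 Hz, 0.36 at 4 Hz and 0.07 at 10 Hz, and none of them reached an unadjusted p under 0.05 at 10 Hz by edgeR. DESeq2 also called none of the 7 at 10 Hz.

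Ndufs8, which carries a pair of iron-sulfur clusters on the way to ubiquinone, had the largest change of the core genes at 4 Hz against control. Its lowest, median and highest TMM-scaled CPM were 41.0, 53.4 and 58.7 in control, 58.9, 64.9 and 84.3 at 1 Hz, 63.8, 75.6 and 114 at 4 Hz, and 48.2, 56.8 and 75.8 at 10 Hz. Neither the 1 Hz nor the 4 Hz values overlapped control, while the 10 Hz values did. The log2 fold change was 0.40 ± 0.13 (SE, adjusted p = 0.0185, edgeR) at 1 Hz and 0.67 ± 0.13 (adjusted p = 0.000262) at 4 Hz. At 10 Hz it was 0.21 ± 0.13, which was not called. Without 1 Hz replicate 6, the adjusted p at 1 Hz was 0.0609 for Ndufs8 (edgeR), and its call was lost.

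Ndufv1, the flavin-bearing subunit that oxidizes NADH, had 136, 150 and 169 CPM in control, 168, 180 and 209 at 1 Hz, 167, 187 and 250 at 4 Hz, and 133, 160 and 181 at 10 Hz. Its values at 1 and 4 Hz were mostly above control with a narrow overlap. Against control, the log2 fold change was 0.30 ± 0.10 at 1 Hz (adjusted p = 0.0194, edgeR), 0.42 ± 0.10 at 4 Hz (adjusted p = 0.00164) and 0.07 ± 0.10 at 10 Hz. Its call at 1 Hz was also lost without 1 Hz replicate 6. On the log2(TPM + 1) scale Ndufv1 was called at 4 Hz but not at 1 Hz (0.22, adjusted p = 0.0787, limma). Ndufs1, the largest iron-sulfur subunit, followed the same order, with a lowest, median and highest CPM of 123, 133 and 166 in control, 141, 158 and 190 at 1 Hz, 164, 171 and 191 at 4 Hz, and 121, 138 and 162 at 10 Hz. One control library, at 166 CPM, stood above the other 5 and within the 4 Hz range. The log2 fold change of Ndufs1 was 0.28 ± 0.09 at 1 Hz, 0.36 ± 0.09 at 4 Hz and 0.05 ± 0.09 at 10 Hz, the first and second of which were called. On the log2(TPM + 1) scale the values were 0.20 at 1 Hz and 0.18 at 4 Hz (adjusted p = 0.104 and 0.14, limma). Neither was called on that scale.

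Ndufs7, which carries the iron-sulfur cluster nearest to ubiquinone, was called only at 4 Hz, with a log2 fold change of 0.48 ± 0.16 (adjusted p = 0.0197, edgeR). Its values were widely spread, from 55.7 to 93.3 CPM in control and from 74.8 to 137 CPM at 4 Hz. At 1 Hz the difference was 0.41 ± 0.16 with an adjusted p of 0.0514. The call at 4 Hz was lost without 4 Hz replicate 6 (adjusted p = 0.067, edgeR), and on the log2(TPM + 1) scale (0.29, adjusted p = 0.122, limma). Ndufs3, which helps to form the link towards the ubiquinone site, differed by 0.19 ± 0.07 at 4 Hz (adjusted p = 0.0313, edgeR), but on the log2(TPM + 1) scale, where the median of all genes shifted to -0.16, its value was -0.01 and was not called. The call of Ndufs3 was also lost without control replicate 5 or 6, or 4 Hz replicate 1 or 2 (adjusted p from 0.0579 to 0.0812, edgeR).

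Ndufv2, the iron-sulfur partner of Ndufv1 in the NADH module, differed in pattern. It had 120, 134 and 148 CPM in control, 94.4, 115 and 130 at 1 Hz, 121, 158 and 168 at 4 Hz, and 138, 150 and 170 at 10 Hz. The 1 Hz values were the lowest but overlapped control, with a log2 fold change of -0.23 ± 0.09 (adjusted p = 0.044, edgeR). This call was lost without control replicate 1, 3, 5 or 6, or 1 Hz replicate 4, 5 or 6 (adjusted p from 0.0586 to 0.131). The differences of 0.19 ± 0.09 at 4 Hz and 0.17 ± 0.09 at 10 Hz were not called.

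Accessory subunits of the matrix arm rose at 4 Hz in 10 of 10 genes. At 10 Hz, 4 of 10 were called higher (Ndufa5, Ndufa9, Ndufa12 and Ndufs6), and at 1 Hz only Ndufs4. Medians of the log2 fold change were 0.10, 0.36 and 0.26 at 1, 4 and 10 Hz.

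Ndufs4 had the largest change of the 48 genes at 4 Hz. The gene (GRCm39 chr13:114421982-114524794, minus strand, 5 exons in its reference transcript) encodes a subunit at the NADH module whose loss destabilizes that module and causes Leigh-like disease in mice. Its CPM was 45.8, 59.1 and 71.6 in control, 63.8, 78.5 and 90.2 at 1 Hz, 90.2, 112 and 135 at 4 Hz, and 64.2, 74.6 and 85.3 at 10 Hz. The 6 libraries at 4 Hz lay above every control library and every 10 Hz library. The log2 fold change against control was 0.91 ± 0.12 at 4 Hz (an 88.4% increase, adjusted p = 3.5e-06, edgeR), 0.41 ± 0.12 at 1 Hz (adjusted p = 0.0106) and 0.33 ± 0.12 at 10 Hz (adjusted p = 0.11).

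Ndufs6, a zinc-binding subunit that joins late in assembly, rose at 4 and at 10 Hz. Its CPM was 66.5, 70.7 and 77.0 in control, 71.2, 74.7 and 88.3 at 1 Hz, 89.7, 102 and 110 at 4 Hz, and 83.4, 88.8 and 99.9 at 10 Hz. Both the 4 Hz and the 10 Hz values lay wholly above control, while 1 Hz overlapped it. On the log2 scale, the change from control was 0.50 ± 0.07 at 4 Hz (adjusted p = 7.46e-06, edgeR) and 0.33 ± 0.07 at 10 Hz (adjusted p = 0.00779).

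Ndufa9, a subunit close to the ubiquinone site that binds NADPH, behaved alike at smaller size, with 110, 114 and 129 CPM in control, 106, 119 and 125 at 1 Hz, 138, 144 and 159 at 4 Hz, and 130, 139 and 144 at 10 Hz. Its spread was small, and 4 and 10 Hz did not overlap control. The log2 fold change was 0.32 ± 0.06 at 4 Hz (adjusted p = 0.000281, edgeR) and 0.23 ± 0.06 at 10 Hz (adjusted p = 0.0283). On the log2(TPM + 1) scale it was 0.10 and 0.09 (adjusted p = 0.194 and 0.377, limma), and neither was called. The call at 10 Hz was lost without control replicate 1, 2, 5 or 6, or 10 Hz replicate 1, 3 or 4 (adjusted p from 0.0503 to 0.068, edgeR). Ndufa5, an accessory subunit of the ubiquinone module, had 50.4 to 56.1 CPM in control, 63.2 to 78.9 at 4 Hz and 59.7 to 71.5 at 10 Hz, again without overlap, and log2 fold changes of 0.42 ± 0.07 and 0.28 ± 0.07. Ndufa12, which occupies the place held by the assembly factor Ndufaf2 during assembly, rose by 0.37 ± 0.08 at 4 Hz and 0.38 ± 0.08 at 10 Hz, with 62.4 to 78.3 CPM in control and 78.0 to 104 at 10 Hz. Its reads may be shared with copies, since 30.3% of its 31-base words also occur in other genes. With the reads of Ndufa12-ps added, the values were 0.31 ± 0.07 at 4 Hz and 0.31 ± 0.07 at 10 Hz, and both remained called. On the log2(TPM + 1) scale Ndufa12 had 0.17 at 4 Hz (adjusted p = 0.0689, limma), which was not called. At 10 Hz it had 0.26 on that scale (adjusted p = 0.0423, limma), which was called.

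Ndufa7 rose by 0.65 ± 0.12 at 4 Hz (adjusted p = 0.000182, edgeR), from 90.2 to 132 CPM in control to 157 to 239 CPM, without overlap. At 10 Hz it reached 123 to 194 CPM and a log2 fold change of 0.33 ± 0.12, which was not called. The other accessory matrix genes, Ndufa2, Ndufa6, Ndufab1 and Ndufv3, were called at 4 Hz only, with log2 fold changes of 0.19 (Ndufab1) to 0.35 (Ndufa2). On the log2(TPM + 1) scale only Ndufv3 of these remained called.

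**Figure D4:**
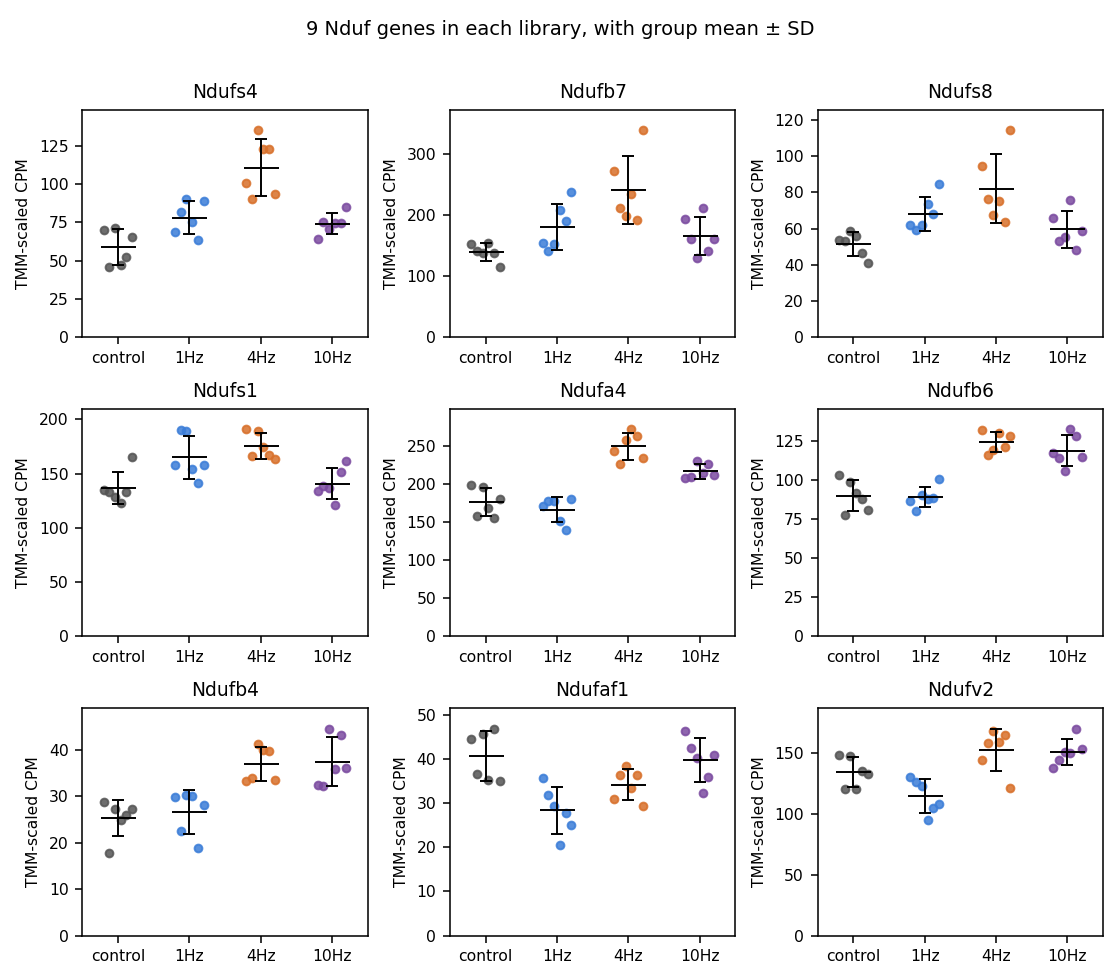
TMM-scaled CPM of 9 Nduf genes in each of the 24 libraries (points) with the group mean ± SD (bars, n = 6), on axes that start at 0. Ndufs4, Ndufb7 and Ndufs8 are highest at 4 Hz, Ndufa4, Ndufb6 and Ndufb4 are high at both 4 and 10 Hz, and both Ndufaf1 and Ndufv2 are lowest at 1 Hz.

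Accessory subunits near the joint of the arms were called higher at 4 Hz in 6 of 9 genes, at 10 Hz in 1 (Ndufs5) and at 1 Hz in none. Ndufa1, a small membrane subunit needed for assembly, rose by 0.58 ± 0.11 at 4 Hz (adjusted p = 0.000186, edgeR), from 40.4 to 58.9 CPM in control to 63.2 to 89.1 CPM, without overlap. Ndufa13, also known as Grim19, rose by 0.56 ± 0.12 at 4 Hz, from 79.7 to 120 CPM in control to 108 to 173 CPM, with overlap. Neither was called at 1 or 10 Hz. Ndufs5, a subunit on the intermembrane space side, rose by 0.43 at 4 Hz and 0.32 at 10 Hz. Ndufa3, Ndufa10 and Ndufc2 were called at 4 Hz only, with log2 fold changes of 0.45, 0.19 and 0.20, and Ndufa8, Ndufa11 and Ndufc1 in no comparison with control. On the log2(TPM + 1) scale, Ndufa3, Ndufa10 and Ndufc2 had 0.14, -0.07 and 0.01 at 4 Hz and were not called. Ndufa1, Ndufa13 and Ndufs5 remained called at 4 Hz on that scale.

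Accessory subunits towards the far end of the membrane arm rose at 4 Hz in 11 of 11 genes, and 9 of these did not overlap control. On the log2(TPM + 1) scale, Ndufb1 and Ndufb5 were not called at 4 Hz (0.22 and 0.06, adjusted p = 0.168 and 0.546, limma). At 10 Hz, 5 were called higher (Ndufb2, Ndufb3, Ndufb4, Ndufb6 and Ndufb8), and at 1 Hz 3 (Ndufb2, Ndufb7 and Ndufb11). Medians of the log2 fold change were 0.08, 0.48 and 0.28 at 1, 4 and 10 Hz.

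Ndufb7, a subunit with disulfide-bonded helices on the intermembrane space side, rose most in this group at 4 Hz. Its gene lies at GRCm39 chr8:84293300-84298255 on the plus strand, with 3 exons. The lowest, median and highest CPM were 114, 140 and 154 in control, 141, 172 and 238 at 1 Hz, 192, 222 and 338 at 4 Hz, and 129, 160 and 211 at 10 Hz. The 4 Hz values lay above control, whereas those at 1 and 10 Hz overlapped it. Against control, the log2 fold change was 0.78 ± 0.14 at 4 Hz (adjusted p = 0.000119, edgeR), 0.37 ± 0.14 at 1 Hz (adjusted p = 0.0432) and 0.25 ± 0.14 at 10 Hz (not called). The call at 1 Hz was lost without control replicate 2, 3, 5 or 6, or 1 Hz replicate 4, 5 or 6 (adjusted p from 0.0551 to 0.143, edgeR).

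Ndufb2 was the single gene of the 48 called higher at all 3 frequencies against control. It encodes a small accessory subunit of the membrane arm. It had 21.1, 23.6 and 26.1 CPM in control, 26.5, 30.7 and 40.6 at 1 Hz, 30.0, 36.3 and 45.6 at 4 Hz, and 26.6, 31.2 and 40.0025 at 10 Hz. Every stimulated library lay above every control library. The log2 fold changes were 0.47 ± 0.13, 0.65 ± 0.12 and 0.48 ± 0.12 (adjusted p = 0.00463, 0.000198 and 0.0234, edgeR). The call at 10 Hz was lost without control replicate 2 or 5, or 10 Hz replicate 4 (adjusted p from 0.0559 to 0.0694).

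Ndufb6 and Ndufb8 did not differ detectably at 1 Hz (-0.01 ± 0.08 in each) and rose at 4 and 10 Hz. Ndufb6 had 77.6, 89.5 and 103 CPM in control, 80.4, 88.2 and 100.8 at 1 Hz, 116, 124 and 132 at 4 Hz, and 105, 116 and 132 at 10 Hz. No library at 4 or 10 Hz overlapped control or 1 Hz. On the log2 scale, the change from control was 0.47 ± 0.08 at 4 Hz (adjusted p = 3.27e-05, edgeR) and 0.40 ± 0.08 at 10 Hz (adjusted p = 0.00284). Ndufb8, whose protein is commonly blotted as a marker of intact complex I, had 123 to 150 CPM in control, 152 to 196 at 4 Hz and 151 to 192 at 10 Hz, and log2 fold changes of 0.39 ± 0.08 and 0.32 ± 0.08. Its call at 10 Hz was lost without control replicate 1, 2 or 5, or 10 Hz replicate 4 (adjusted p from 0.0522 to 0.0813, edgeR).

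Ndufb9, the most abundant of the 48 in TPM, rose by 0.51 ± 0.09 at 4 Hz (adjusted p = 6.83e-05, edgeR). It had 214, 262 and 306 CPM in control, 265, 290 and 328 at 1 Hz, 333, 372 and 417 at 4 Hz, and 282, 316 and 379 at 10 Hz. The values at 4 Hz were above all control and 1 Hz values. At 10 Hz the difference of 0.28 ± 0.09 had an adjusted p of 0.0581.

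Ndufb4 was the single gene past the study's fold threshold at 10 Hz. It had 17.8, 26.6 and 28.8 CPM in control, 18.9, 29.0 and 30.2 at 1 Hz, 33.3, 36.8 and 41.2 at 4 Hz, and 32.3, 36.0 and 44.5 at 10 Hz. Neither 4 nor 10 Hz overlapped control. The log2 fold change was 0.55 ± 0.12 at 4 Hz (adjusted p = 0.000941, edgeR) and 0.56 ± 0.12 at 10 Hz (adjusted p = 0.00781). Every 31-base word of its copy Ndufb4c (100%) also occurs in Ndufb4 or another gene, so that the division of reads between them is uncertain. The tables gave Ndufb4c 368 TPM and Ndufb4 58.1 TPM. Ndufb4c rose by 0.47 ± 0.09 at 4 Hz and 0.35 ± 0.09 at 10 Hz, both called, and with the reads of Ndufb4, Ndufb4b and Ndufb4c added together the values were 0.50 ± 0.09 and 0.44 ± 0.09 (adjusted p = 8.97e-05 and 0.0043, edgeR). Ndufb4b, at 7.69 TPM, was at 0 in at least 3 of the 6 libraries of each group, and its differences had standard errors above 1 on the log2 scale.

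The difference between assembly factors and subunits was not tested, and the assembly factors had lower counts. At 4 Hz against control, 1 of 8 was called higher (Ndufaf2) and none lower, at 10 Hz none in either direction, and at 1 Hz 1 higher (Ndufaf2) and 2 lower (Ndufaf1 and Ndufaf7). Of all genes, 19.2% were called higher and 20.2% lower at 4 Hz, and 2.67% and 2.22% at 10 Hz. At 1 Hz these shares were 18.1% and 17.3%, so that counts among 8 genes lay near the background. The median log2 fold change of the 8 genes was -0.24 at 1 Hz, 0.09 at 4 Hz and 0.13 at 10 Hz, beside 0.10, 0.42 and 0.19 for the 37 subunit genes. Between 4 and 1 Hz it was 0.27 for the assembly factors and 0.30 for the subunits.

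Ndufaf1, also called CIA30, is a factor of the complex that assembles the membrane arm. It had 35.2, 40.7 and 46.9 CPM in control, 20.6, 28.5 and 35.7 at 1 Hz, 29.3, 34.9 and 38.5 at 4 Hz, and 32.2, 40.6 and 46.3 at 10 Hz. The 1 Hz values were the lowest, and only the highest of them reached the control range. Against control, the log2 fold change was -0.53 ± 0.12 at 1 Hz (adjusted p = 0.00106, edgeR), -0.25 ± 0.11 at 4 Hz (not called) and -0.03 ± 0.11 at 10 Hz. On the log2(TPM + 1) scale Ndufaf1 was also called lower at 4 Hz (-0.42, adjusted p = 0.0205, limma). The same held with replicate number as a block in the fit (-0.24, adjusted p = 0.0445, edgeR).

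Ndufaf7, an arginine methyltransferase of mitochondria, had 26.4, 30.7 and 32.2 CPM in control, 19.6, 21.0 and 27.4 at 1 Hz, 21.3, 26.4 and 29.0 at 4 Hz, and 24.9, 30.7 and 37.4 at 10 Hz. Its difference at 1 Hz was -0.45 ± 0.11 on the log2 scale (adjusted p = 0.00224, edgeR), with 1 library of 6 reaching into the control range. At 4 Hz the value was -0.22 ± 0.11, which was not called. Ndufaf2, the factor that is replaced by Ndufa12, moved the other way, with 5.70, 6.89 and 7.41 CPM in control, 5.97, 8.80 and 11.5 at 1 Hz, 8.71, 11.1 and 12.4 at 4 Hz, and 5.32, 8.54 and 9.39 at 10 Hz. The 4 Hz values lay above control, those at 1 and 10 Hz did not all do so, and the log2 fold change was 0.68 ± 0.15 at 4 Hz (adjusted p = 0.00101, edgeR) and 0.42 ± 0.16 at 1 Hz (adjusted p = 0.0394). The call at 1 Hz was lost without control replicate 1, 2, 4 or 5, or 1 Hz replicate 2, 3 or 6 (adjusted p from 0.052 to 0.127, edgeR).

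Ndufaf4, Ndufaf5 and Ndufaf6 were not called against control. Ndufaf4, which with Ndufaf3 takes part in joining the early modules, had log2 fold changes of -0.24 ± 0.16, 0.22 ± 0.16 and 0.32 ± 0.16 at 1, 4 and 10 Hz. Ndufaf5, an arginine hydroxylase acting on Ndufs7, had -0.24 ± 0.12, 0.19 ± 0.12 and 0.21 ± 0.12. Ndufaf6 had -0.36 ± 0.18, 0.21 ± 0.18 and 0.48 ± 0.18, the last with an adjusted p of 0.107 by edgeR. Ndufaf3 and Ndufaf8 had differences from control of at most 0.12 in size by edgeR, with standard errors of 0.17. On the log2(TPM + 1) scale they were larger and not called by limma. At 1, 4 and 10 Hz, Ndufaf3 had -0.08, -0.32 and -0.33 on that scale, and Ndufaf8 -0.31, -0.36 and -0.37. Mean counts per library of the 8 assembly factors ran from 68.9 (Ndufaf2) to 311 (Ndufaf4), against 2462 for Ndufb9. At an unadjusted p under 0.05, 1 of the 8 differed at 10 Hz by edgeR.

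Ndufa4, whose protein is a subunit of complex IV, had 156, 174 and 199 CPM in control, 140, 174 and 180 at 1 Hz, 226, 250.2 and 271 at 4 Hz, and 207, 213 and 231 at 10 Hz. Both 4 and 10 Hz lay above all control and 1 Hz values. On the log2 scale, the change from control was 0.50 ± 0.08 at 4 Hz (adjusted p = 1.7e-05, edgeR) and 0.30 ± 0.08 at 10 Hz (adjusted p = 0.0226). The call at 10 Hz was lost without control replicate 2 or 5 (adjusted p from 0.0572 to 0.0634, edgeR). Its relative Ndufa4l2, a hypoxia-induced gene outside the 48, stayed between 0 and 0.988 CPM in all libraries and was too low to test.

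Stimulation frequencies were also compared with each other. Between 4 and 1 Hz, where the small RNA share overlapped, 24 of the 48 genes were called higher at 4 Hz and none lower, against 5.71% and 6.56% of all genes. All 24 were kept with the small RNA covariate, which had little group difference to take up here (means of 30.2 CPM at 1 Hz and 27.6 at 4 Hz). DESeq2 called 28 higher and none lower, and 33 reached an unadjusted p under 0.05 in either direction by edgeR. The median log2 fold change was 0.30 for the 48 genes, beside a median within 0.01 of 0 for all genes, and 15 genes had all 6 values at 4 Hz above all at 1 Hz and none below (2.37% and 3.33% of all genes). With the study's fold threshold 3 genes remained higher and none lower (1.59% and 1.4% of all genes), Ndufa4 (0.58 ± 0.08, adjusted p = 2.57e-05, edgeR), Ndufaf6 (0.57 ± 0.18, adjusted p = 0.0359) and Ndufs4 (0.50 ± 0.12, adjusted p = 0.00704). The call of Ndufaf6 was lost without 1 Hz replicate 4, 5 or 6, or 4 Hz replicate 1, 2, 3 or 4 (adjusted p from 0.0503 to 0.101, edgeR). By role, 1 of 7 core subunits was called (Ndufv2, 0.42 ± 0.09), 7 of 10 accessory matrix subunits, 4 of 9 near the joint, 8 of 11 at the far end and 2 of 8 assembly factors.

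Between 10 and 1 Hz, 19 genes were called higher and 1 lower at 10 Hz, against 17.7% and 18.5% of all genes. The assembly factors contributed 5 of 8 to the higher calls, more than in any comparison with control. Ndufaf6, a phytoene synthase family protein needed for early assembly, had 3.66, 6.85 and 7.71 CPM at 1 Hz and 9.20, 11.3 and 13.8 CPM at 10 Hz, without overlap and with a log2 fold change of 0.84 ± 0.18 (adjusted p = 0.000607, edgeR). Ndufaf4 had 24.3, 32.6 and 39.0 CPM at 1 Hz and 40.4, 46.0 and 58.9 CPM at 10 Hz, also without overlap (0.56 ± 0.16, adjusted p = 0.00822, edgeR). Both passed the study's fold threshold and no gene did so in the lower direction (9.45% and 8.49% of all genes). In 11 of the 48 genes all values at 10 Hz lay above those at 1 Hz, and in none below (5.67% and 7.49% of all genes). Ndufaf1, Ndufaf5 and Ndufaf7 were higher by 0.50 ± 0.12, 0.45 ± 0.12 and 0.49 ± 0.11. Ndufs1 was the single gene called lower (-0.23 ± 0.09, adjusted p = 0.0356, edgeR), and this call was lost without 1 Hz replicate 2 or 3, or 10 Hz replicate 1, 2, 3 or 4 (adjusted p from 0.0595 to 0.0951). The count of lower calls was 2 without 1 Hz replicate 1 and 0 without 1 Hz replicate 2 or 3, or 10 Hz replicate 2 or 3. With the correction for GC content and transcript length, 11 genes were called lower, among them Ndufs1, Ndufs3, Ndufs7, Ndufs8 and Ndufv1 of the core, and the median over the 48 genes was 0.05. The small RNA share differed between these groups, and with it as a covariate 1 of the 20 calls was kept, Ndufb6 (0.49 ± 0.11, adjusted p = 0.0173, edgeR). The median over the 48 genes was 0.15 without and 0.18 with the covariate, and standard errors were wider with it, as for Ndufaf6 (0.73 ± 0.26).

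Between 10 and 4 Hz, 12 genes were called lower at 10 Hz and none higher, against 11.9% lower and 10.9% higher among all genes. At an unadjusted p under 0.05, 21 differed in either direction by edgeR, and DESeq2 called 16 lower and none higher. Leaving out 1 library gave 9 to 18 lower calls (18 without 4 Hz replicate 5), and 1 higher call without 10 Hz replicate 5 or 6. The 12 genes were Ndufs1, Ndufs8 and Ndufv1 of the core, Ndufs4 and Ndufv3 of the accessory matrix arm, Ndufa1, Ndufa10, Ndufa13, Ndufb7, Ndufb10 and Ndufb11 of the membrane arm, and the assembly factor Ndufaf2. Ndufs4 had a log2 fold change of -0.58 ± 0.12 (adjusted p = 0.0014, edgeR), without overlap, and Ndufb7 one of -0.54 ± 0.14 (adjusted p = 0.00777). Those 2 passed the study's fold threshold, and no gene passed it in the higher direction (5.64% and 5.32% of all genes). In all, 2 of the 48 genes, Ndufs4 and Ndufs1, had all values at 10 Hz below those at 4 Hz, and none above (3.54% and 2.67% of all genes). With the small RNA covariate none of the 12 was kept, and that fit called 0 of all genes in either direction between 10 and 4 Hz, with 4 of the 48 at an unadjusted p under 0.05. The median over the 48 genes was -0.14 without and -0.13 with the covariate, and Ndufs4 had -0.51 ± 0.17 with it. With the correction for GC content and transcript length, 18 genes were called lower. Ndufa12, Ndufb4 and Ndufb6 were not called between 4 and 10 Hz. Their log2 fold changes were 0.01 ± 0.07 (95% interval -0.14 to 0.17), 0.01 ± 0.12 (-0.23 to 0.26) and -0.07 ± 0.07 (-0.22 to 0.09).

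The order of the 4 group means in CPM thus differed between genes. The mean was highest at 4 Hz in 37 of the 48. It was lowest in control for 28 genes, at 1 Hz for 18 and at 10 Hz for 2 (Ndufa10 and Ndufaf3). In 14 genes, among them Ndufs1, Ndufs4, Ndufs8, Ndufv1, Ndufb7 and Ndufaf2, the means ascended from control over 10 Hz and 1 Hz to 4 Hz. In 10 others, among them Ndufa4, Ndufa5, Ndufa9, Ndufb6, Ndufb8 and Ndufv2, they ascended from 1 Hz over control and 10 Hz to 4 Hz.

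Promoter sequences are shown for genes of these patterns, since several Nduf genes moved together. The windows, from RefSeq and matched to GRCm39, were searched on both strands for TGCGCA (part of the site of the factor NRF1), AAGGTCA (ERR), CCGGAAG (ETS and GABP), AAGATGG (YY1) and GGGCGG (Sp). These motifs do not contain one another. Windows of 250 bases before to 50 after the start were at hand for 42 of the 48 genes (44 windows). TGCGCA was in 27.3% of these windows and 7.76% of all 32851 windows, AAGATGG in 18.2% and 6.34%, CCGGAAG in 13.6% and 8.86%, AAGGTCA in 6.82% and 4.72%, and GGGCGG in 50.0% and 35.7%. Of the 11 genes called at 10 Hz against control that had a window, 7 held TGCGCA (Ndufa5, Ndufa9, Ndufb4, Ndufb6, Ndufb8, Ndufs5 and Ndufs6). TGCGCA was also in 4 of the 31 genes not called at 10 Hz that had a window (Ndufa6, Ndufa8, Ndufaf4 and Ndufb10). Of the 7 genes called higher at 1 Hz that had a window, 0 held it. These are counts of letters in a window, without a test, and do not show binding.

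The following stretches lie just before the start of the gene. They run 5′ to 3′ in the direction of the gene, with matches to TGCGCA or GGGCGG on either strand in capitals. Ndufa9 (chr6:126826118-126826267, minus strand), Ndufb6 (chr4:40279469-40279618, minus strand) and Ndufs6 (chr13:73476662-73476811, minus strand) were called higher at both 4 and 10 Hz and hold TGCGCA. Ndufb7 (chr8:84293150-84293299, plus strand) and Ndufs4 (chr13:114524795-114524880, minus strand) were called higher at 1 and 4 Hz, and their stretches hold neither of these letters. Their full windows hold CCGGAAG (Ndufb7) and AAGATGG (Ndufs4). These letters do not set them apart, since the full windows of Ndufa9 and Ndufs6 also hold AAGATGG and that of Ndufb6 CCGGAAG. Ndufa4, Ndufa12, Ndufb2 and Ndufb3 were also called higher at both 4 and 10 Hz, but their windows lack TGCGCA and are not shown.
Ndufa9: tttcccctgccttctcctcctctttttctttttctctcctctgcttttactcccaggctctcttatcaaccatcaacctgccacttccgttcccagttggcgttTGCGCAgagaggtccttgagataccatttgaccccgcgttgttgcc
Ndufb6: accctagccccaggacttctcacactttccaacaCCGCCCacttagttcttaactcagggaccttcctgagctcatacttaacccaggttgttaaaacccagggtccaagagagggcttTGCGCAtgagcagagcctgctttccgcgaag
Ndufs6: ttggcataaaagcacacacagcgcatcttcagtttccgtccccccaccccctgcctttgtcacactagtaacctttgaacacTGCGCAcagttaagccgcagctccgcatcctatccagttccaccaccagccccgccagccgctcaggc
Ndufb7: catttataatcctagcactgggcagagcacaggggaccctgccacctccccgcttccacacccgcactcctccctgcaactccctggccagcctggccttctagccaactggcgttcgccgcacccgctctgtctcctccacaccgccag
Ndufs4: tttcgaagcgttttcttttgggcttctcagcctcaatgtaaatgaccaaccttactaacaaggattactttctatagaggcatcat

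Complex I genes outside the 48 were counted beside them. Of 12 assembly factors with other names, 11 were in the table and tested. At 1 Hz, 1 was called higher (Nubpl, an iron-sulfur protein for complex I, 0.52 ± 0.14) and 5 lower (Timmdc1, Tmem70, Tmem126b, Tmem186 and Lyrm2, from -0.23 to -0.39). At 4 Hz, 2 were called higher (Nubpl, 0.58 ± 0.14, and Dmac1, 0.30 ± 0.10) and none lower, and at 10 Hz none in either direction. Between 10 and 1 Hz, 5 were called higher and 2 lower (17.7% and 18.5% of all genes). Against control, the shares of all genes called higher and lower were 18.1% and 17.3% at 1 Hz. They were 19.2% and 20.2% at 4 Hz, and 2.67% and 2.22% at 10 Hz. Of the 7 core subunits of the mitochondrial genome, none was called at 1 Hz, 5 were called higher at 4 Hz and 2 at 10 Hz. Their summed level was 3131 to 4699 CPM in control, 3842 to 5395 at 1 Hz, 4480 to 12368 at 4 Hz and 3867 to 9805 at 10 Hz.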

How the data were processed

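Bulk RNA-seq of 24 libraries (4 conditions, 6 libraries each) was analysed from the deposited gene tables. Per the study's methods, the authors mapped reads with BWA-MEM and ran the nf-core/rnaseq pipeline on GRCm39 with Ensembl annotation, and the submitters' processing notes also list STAR and Salmon. They deposited estimated counts (expected counts) and TPM values per gene, and the strand setting of the counting is not given in the sources used here. Estimated counts, which were not whole for some genes, were rounded. Depth was 4085578 to 15194554 counts per library, which limits the precision of low genes such as the assembly factors.

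In R 4.3.3, genes were filtered by condition with edgeR 4.0.16 (filterByExpr), scaled by TMM and tested with the quasi-likelihood test in 1 fit of all libraries, with Benjamini-Hochberg adjustment over the 13318 genes tested and calls at an adjusted p under 0.05. SE was the log2 fold change over the root of the F statistic. CPM values are TMM-scaled and levels between genes are in TPM. The 6 comparisons share groups. Alternatives comprised other scalings and filters, DESeq2 1.42.0, limma 3.58.1 on log2(TPM + 1) and log2(TPM + 0.1), only the 12 libraries compared, a replicate block, the small RNA share as a covariate, a correction for GC content and transcript length, and each library left out. Adding the reads of copies was chosen after seeing the data. The scripts were tested on simulated counts.

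Genes named with values were the core subunits, all Nduf assembly factors, Ndufa4 and Ndufa4l2, the 4 largest calls in each direction against control, genes past the study's fold of 0.5 in any comparison, and genes without overlap in at least 2 comparisons with control. Of the 48 genes, 1 is counted but not reported by name here. Others are named to account for the counts, and values printed for them were chosen after they were seen. The members and gene lists were chosen with earlier results of these data known. P-values of the main fit set a difference between groups against the spread of libraries within groups, estimated jointly over the 4 conditions.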

Additional observations from a re-analysis of the deposited data

Results flagged for a closer look

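In 7 of 116 sets of 6 libraries, 1 library stood far from the other 5 (Dixon's test, which flags about 1 in 20 sets by chance). Control replicate 6 was lowest for Ndufa7, at 90.2 CPM with the next library at 118, and for Ndufaf5, at 12.8 CPM with the next at 16.8. The same library was highest for Ndufs1, at 166 CPM with the next at 135. Control replicate 2 was lowest for Ndufb4, at 17.8 CPM with the next at 24.9. Among 1 Hz libraries, replicate 5 was lowest for Ndufaf6 (3.66 CPM, next 6.35), replicate 2 highest for Ndufs3 (157 CPM, next 144) and replicate 6 highest for Ndufs6 (88.3 CPM, next 76.9).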

How the results depend on the processing

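Counts of the 48 genes called were compared across alternatives. At 1 Hz against control, higher calls (8) became 2 with total count scaling, 4 with limma on log2(TPM + 1) or log2(TPM + 0.1), 2 with limma and no filter, 0 with the added fold, 0 with the small RNA covariate and 16 with the GC content and transcript length correction. Lower calls (3) became 5 with total count scaling, 6 with limma at either pseudocount, 1 with the fold and 0 with the covariate. At 4 Hz, higher calls (35) became 22 with limma at either pseudocount, 17 with limma and no filter, 11 with the fold and 6 with the covariate. Lower calls (0) became 2 with total count scaling, 2 with each limma fit and 1 with the replicate block. At 10 Hz, higher calls (12) became 4 with limma at either pseudocount, 2 with limma and no filter, 5 with only the 12 libraries and 1 with the fold. Between 4 and 1 Hz, higher calls (24) became 13 with limma at either pseudocount, 8 with limma and no filter and 3 with the fold. Between 10 and 1 Hz, higher calls (19) became 2 with the fold and 1 with the covariate. Lower calls (1) became 0 with total count scaling, without a count filter, at a minimum of 5 CPM, with only the 12 libraries, with the fold and with the covariate, 3 with limma at either pseudocount, 2 with the replicate block and 11 with the GC and length correction. Between 10 and 4 Hz, lower calls (12) became 7 with limma at either pseudocount, 5 with limma and no filter, 2 with the fold and 0 with the covariate. They became 16 with DESeq2 or the replicate block and 18 with the GC and length correction. Higher calls (0) became 1 with total count scaling and 1 with the replicate block. The fold sets a stricter rule and the 12-library fit holds fewer samples, and the cause of the other moves was not tested.

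Among the genes chosen by rule for naming, Ndufs3 reversed at 4 Hz against control. It had -0.0077 with limma on log2(TPM + 1), with or without the filter, and on log2(TPM + 0.1). Ndufa10, outside that list, also changed sign on log2(TPM + 1). It had -0.07 at 4 Hz against control and 0.10 between 10 and 4 Hz, neither of which was called. Leaving out 1 library gave 3 to 9 higher and 2 to 4 lower calls at 1 Hz, 31 to 35 higher at 4 Hz, 5 to 14 higher at 10 Hz, 19 to 25 higher between 4 and 1 Hz, 17 to 19 higher and 0 to 2 lower between 10 and 1 Hz, and 0 to 1 higher and 9 to 18 lower between 10 and 4 Hz.

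What the replicate numbers mark is not stated, and whether they pair the libraries was not tested. Same-numbered libraries had correlations of their deviations from -0.18 to 0.36 (median 0.02). Libraries with other numbers had -0.32 to 0.36 (median -0.01). Of the 24 libraries, 10 correlated best with a library of their own number. With the replicate block, calls were 8 higher and 3 lower at 1 Hz, 37 and 1 at 4 Hz, 13 and 0 at 10 Hz, 29 and 0 between 4 and 1 Hz, 19 and 2 between 10 and 1 Hz, and 1 and 16 between 10 and 4 Hz. The 48 genes have a median transcript length of 1117 bases, against 3231 for all genes, and with the GC and length correction 30 of the 35 calls at 4 Hz and 8 of the 12 at 10 Hz were kept.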
